A study of Schizosaccharomyces pombe with 4 samples.

Results

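The genes described here encode the proteins of the large (60S) subunit of the cytosolic ribosome in fission yeast, Schizosaccharomyces pombe. They were chosen by name, as the rows of the deposited expression table whose gene name starts with rpl and a number. The rule used no measured value, although earlier results of these data were known when it was set. This gave 76 genes of the 5129 in the table, and stalk genes (rpp) and the assembly factor genes rlp7 and rlp24 were left out. The 76 genes encode 43 different proteins. Of these proteins, 12 come from a single gene, 29 from 2 gene copies and 2 from 3 copies, so that 64 genes have at least 1 other copy.

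Total RNA was sequenced from untreated cells in exponential growth in 4 genotypes, namely wild type and cells that lack sfp1, ifh1 or fhl1, with 1 value per gene and genotype. The strain background, the way each gene was deleted and the number of clones are not stated in the sources used here. Since no genotype had a second value, no difference below has a replicate check and no p-value is given. The 3 knockouts were each compared with the same wild-type column, so a wild-type value that is off moves all 3 ratios of a gene together.

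Each large subunit holds 1 copy of most of its proteins, wrapped around the ribosomal RNA, and cells make them in matched amounts. In yeasts many of these proteins are encoded by pairs of gene copies that are left from duplications. In budding yeast, Sfp1 is a zinc finger factor that links the nutrient-sensing kinase complex TORC1 to genes of ribosome production, and Fhl1 is a forkhead protein that sits on ribosomal protein promoters together with its coactivator Ifh1. In fission yeast these promoters carry the HomolD box, a short element that takes the place of the TATA box, often with a HomolE box upstream of it.

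The unit throughout is FPKM, a fragment count corrected for coding length and for the size of the library, and "without sfp1" stands for the sfp1 knockout. A ratio is given as the log2 of (FPKM + 1) in the knockout over (FPKM + 1) in wild type, so −1 is a 2-fold lower level. The deleted genes were near 0 in the matching columns. The level of sfp1 was 0.0818 FPKM in its knockout and 261.0 in wild type, that of ifh1 was 0.556 and 127.5, and that of fhl1 was 0.0509 and 53.8. The authors' lower and upper bounds of each value are the only measure of error in the table. They are not on the scale of the FPKM for many genes, and the reason was not tested. In wild type 59 of the 76 genes lay above their own upper bound, namely all 41 members under 500 bp and 18 of the 35 longer ones. Among genes other than rpl this was so for 585 of 689 under 500 bp and 243 of 3996 longer ones. The wild-type FPKM was a median of 18.0 times the midpoint of the bounds in the 10 members under 300 bp, 2.32 times in the 31 of 300 to 500 bp and 1.40 times, from 1.03 to 1.64, in the 35 longer ones. Levels are set side by side below for the longer genes, where this factor varies least, and differences within that range cannot be read as differences in level. The sources used here do not state the fragment total of each library.

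Apart from rpl41, whose values are the least certain, the widest gaps between the ratios of copies of 1 protein were those of rpl1, rpl16, rpl27 and rpl30. The 120 bases upstream of the annotated start of these copies are shown first, so that promoters of the same protein can be compared. The sequences are from RefSeq, build ASM294v3, and are written from 5′ to 3′ on the strand of the gene. Capitals mark the HomolD box CAGTCACA, exact or with 1 letter changed, and the first 9 letters of the HomolE box, ACCCTACCC, each on either strand. The stretches are rpl101 at chrIII:612580-612699 (minus strand), rpl102 at chrII:3060429-3060548 (plus), rpl1601 at chrII:624056-624175 (minus), rpl1602 at chrI:4097206-4097325 (plus) and rpl1603 at chrII:3443134-3443253 (plus). The others are rpl2701 at chrII:2780665-2780784 (minus), rpl2702 at chrIII:1939117-1939236 (plus), rpl3001 at chrI:1974084-1974203 (minus) and rpl3002 at chrI:5095880-5095999 (minus).
rpl101: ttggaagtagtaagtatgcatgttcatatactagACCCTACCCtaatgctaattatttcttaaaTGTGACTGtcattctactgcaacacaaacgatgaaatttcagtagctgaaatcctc
rpl102: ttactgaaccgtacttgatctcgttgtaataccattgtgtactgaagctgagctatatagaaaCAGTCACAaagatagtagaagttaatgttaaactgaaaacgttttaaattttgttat
rpl1601: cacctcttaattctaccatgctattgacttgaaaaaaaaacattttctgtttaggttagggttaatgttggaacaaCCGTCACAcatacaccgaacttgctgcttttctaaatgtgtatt
rpl1602: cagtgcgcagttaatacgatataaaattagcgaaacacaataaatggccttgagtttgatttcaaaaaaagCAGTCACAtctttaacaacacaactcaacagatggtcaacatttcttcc
rpl1603: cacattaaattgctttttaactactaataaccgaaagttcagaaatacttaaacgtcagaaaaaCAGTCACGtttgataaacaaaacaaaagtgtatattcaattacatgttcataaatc
rpl2701: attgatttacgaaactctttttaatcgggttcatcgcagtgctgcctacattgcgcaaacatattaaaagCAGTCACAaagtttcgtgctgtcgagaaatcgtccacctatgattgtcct
rpl2702: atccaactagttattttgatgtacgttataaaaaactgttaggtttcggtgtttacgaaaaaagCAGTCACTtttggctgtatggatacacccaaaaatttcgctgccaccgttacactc
rpl3001: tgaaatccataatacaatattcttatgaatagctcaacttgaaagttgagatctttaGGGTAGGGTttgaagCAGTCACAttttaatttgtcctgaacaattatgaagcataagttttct
rpl3002: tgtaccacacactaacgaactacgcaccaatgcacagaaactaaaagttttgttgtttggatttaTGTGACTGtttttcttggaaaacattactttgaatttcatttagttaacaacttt

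Every one of these 9 stretches held a HomolD box that was exact or had 1 letter changed. It was exact in 6 of them, and read on the opposite strand (TGTGACTG) in rpl101 and rpl3002. Counted from 1 at the first letter of CAGTCACA, the change was A2C in rpl1601, A8G in rpl1603 and A8T in rpl2702. The 9 HomolE letters were present in rpl101 and rpl3001, upstream of the HomolD box, and in neither partner.

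In wild type the 76 genes ranged from 115.3 FPKM (rpl1202) to 1044820 FPKM (rpl4101), with a median of 4723. None was listed at 0 in any genotype. The extreme upper values belong to very short genes. The genes rpl4101 and rpl4102, both of 78 bp, held more of the FPKM than all other large-subunit genes together, at values far above their own bounds. With them, large-subunit genes held 56.3% of all FPKM in wild type, 58.1% without sfp1, 62.3% without ifh1 and 56.7% without fhl1. With both left out of the numerator and the denominator, the share ran the other way, as these genes held 24.9% in wild type, 21.7% without sfp1, 21.4% without ifh1 and 22.7% without fhl1. Next in order were rpl39 (156 bp), whose protein lines the exit tunnel of the ribosome, at 64765 FPKM, and rpl29 (186 bp) at 32518, then rpl31 (342 bp) at 18191. These values too lay above their bounds, which were 306.0 to 619.6 for rpl39, 431.5 to 912.9 for rpl29 and 3391 to 7564 for rpl31. By the bounds rpl31 was the highest of these 3 genes, so their order in level is uncertain.

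Among genes of 500 bp or more, levels summed over the copies of a protein were more alike than those of single genes. The single genes ran from 293.3 FPKM for rpl1603 to 9899 for rpl8 (eL8) in wild type. Among the 18 proteins encoded by genes of 500 bp or more, the summed wild-type level ran from 1914 FPKM for rpl3 to 10286 for rpl18, with a median of 7740. The protein of rpl3 sits near the catalytic centre of the ribosome. The lowest sum of all was that of rpl12, a protein at the base of the ribosome's stalk, at 234.7 FPKM, although its coding length of 498 bp is near that of the others. The rpl1201 gene was at 119.4 FPKM in wild type, 103.8 without sfp1, 69.0 without ifh1 and 77.6 without fhl1, and rpl1202 at 115.3, 109.1, 83.9 and 88.0. The minor rpl3 copy, rpl302, was at 495.6, 346.8, 312.1 and 321.6 FPKM. The copies of rpl12, rpl10 and rpl3 are also the most alike in coding sequence, at 99.6%, 97.9% and 96.3% identity. Of all 50-base windows in the coding sequence, 97.1% were shared between rpl1201 and rpl1202, 71.5% between rpl301 and rpl302 and 47.6% between rpl1001 and rpl1002. Their values depend on how reads that match both copies were counted, which the sources used here do not state, and the part of this in the low levels of rpl12 and rpl3 was not tested. Of the other 70 genes, 14 shared less than 10% of their windows and 56 shared none.

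**Figure D1:**
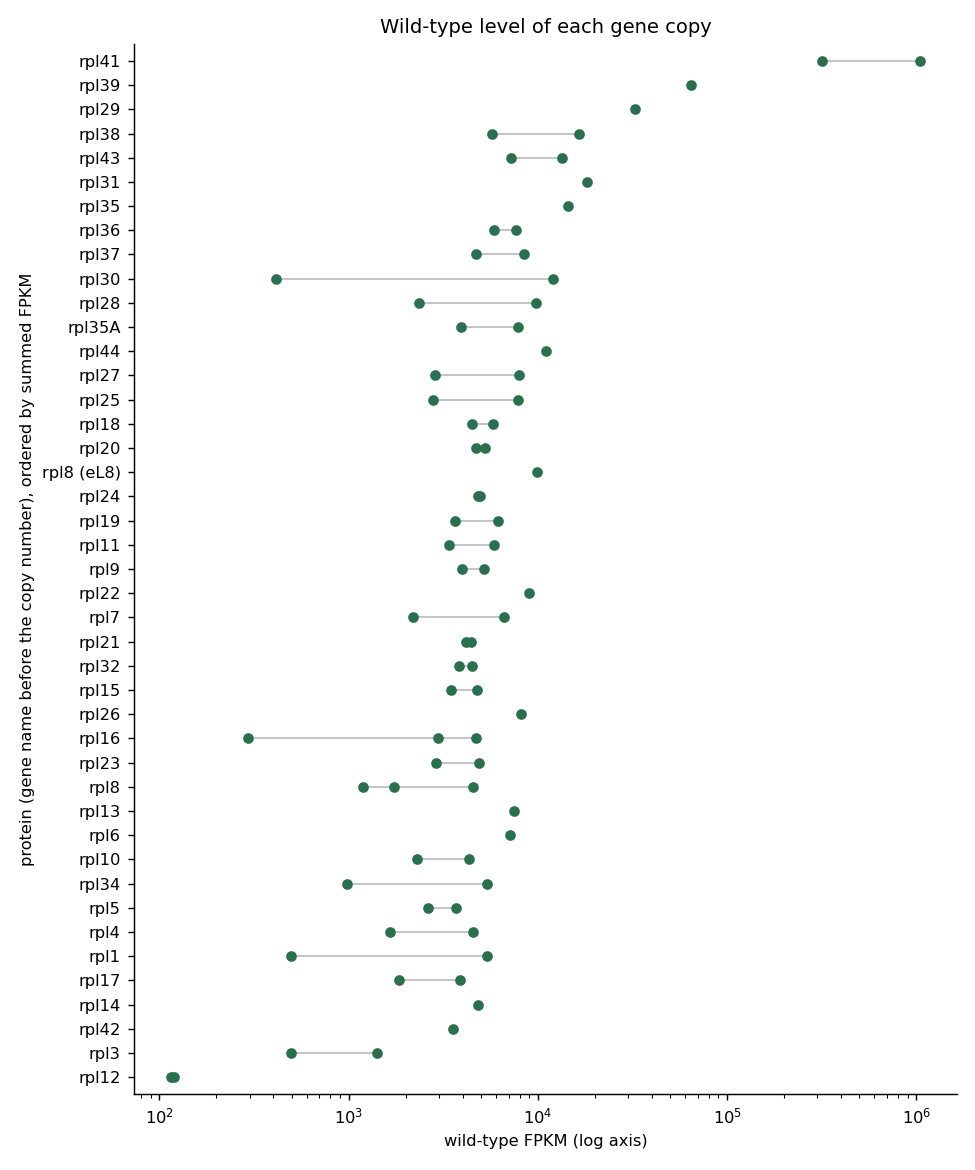
Wild-type FPKM (log axis) of each large-subunit gene, with 1 line per protein, ordered by the summed FPKM of its copies, and copies joined by a grey bar; rpl8 stands for rpl801 to rpl803, and rpl8 (eL8) is another protein. Copies of rpl30, rpl16 and rpl1 lie more than 10-fold apart, and those of rpl12 and rpl24 almost coincide.

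In all 3 knockouts, large-subunit genes were lower than in wild type almost without exception, and the ifh1 knockout had the lowest values. The median ratio was −0.55 without sfp1, −0.89 without ifh1 and −0.57 without fhl1, while the median of all 4761 genes that averaged 1 FPKM or more was −0.01, −0.01 and 0.02. All 76 members passed that minimum. Below 0 were 75, 74 and 74 of the 76, against 51.4%, 52.1% and 47% of all genes. The lower and upper quartiles of the members were −0.68 and −0.47 without sfp1, −1.14 and −0.67 without ifh1 and −0.74 and −0.39 without fhl1. With quantile normalization, which gives all genotypes the same distribution of values, 48, 47 and 51 members were below 0, 22, 24 and 22 were above 0, and the medians were −0.09, −0.12 and −0.10. Members hold many of the highest values, so equal distributions take away much of a change that they share. That setting therefore cannot show whether the members were lower as a group. Scaling to the FPKM outside ribosomal protein genes moved the median of all genes to 0.19, 0.28 and 0.15, and relative to it the members' medians were −0.54, −0.87 and −0.59. Whether the lower values rest on fewer transcripts per cell or on a larger share of other transcripts cannot be told apart in FPKM, which give shares of a library.

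The ifh1 knockout had the most members at the 2-fold limit. At least 2-fold lower were 1 of 76 genes in the sfp1 knockout (2.5% of all genes), 28 without ifh1 (2.84% of all genes) and 5 without fhl1 (0.903% of all genes). As shares of the members these were 1.32%, 36.8% and 6.58%. The counts fell to 0, 11 and 4 with scaling to the FPKM outside ribosomal protein genes. They fell to 0, 4 and 1 with quantile normalization, which takes away much of a shared change. No member was at least 2-fold higher in the sfp1 knockout (3.11% of all genes) or the ifh1 knockout (1.6%), and 1, rpl4102, was in the fhl1 knockout (2.58%). The upper bound in the knockout lay below the lower bound in wild type for 0, 17 and 5 members in the same order, against 1.43%, 1.34% and 0.315% of all genes.

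**Figure D2:**
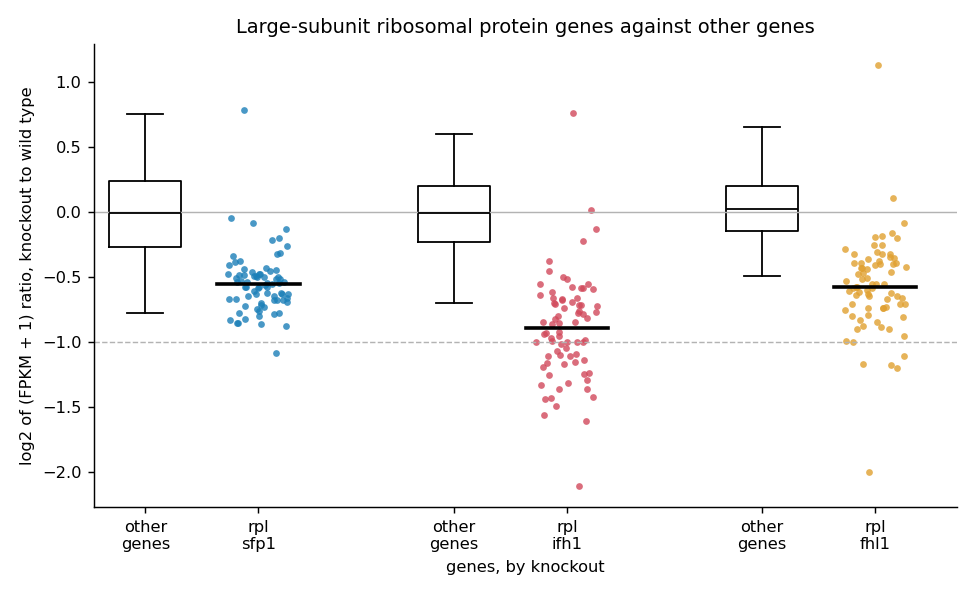
Log2 ratio of (FPKM + 1) to wild type for the 76 large-subunit genes (points, black bar at their median) and for all other genes that averaged 1 FPKM or more (box from the lower to the upper quartile, line at the median, whiskers to the 5th and 95th percentile) in each knockout. Below the median of the other genes lie 75, 74 and 74 of the 76 members (the exceptions are rpl4102 in all 3 knockouts, rpl102 without ifh1 and rpl39 without fhl1), with medians of −0.55, −0.89 and −0.57, and spread furthest down in the ifh1 knockout; the single high point in each is rpl4102.

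Other parts of the translation machinery were read in the same way. The 55 small-subunit genes (rps) had medians of −0.62, −0.98 and −0.60 without sfp1, ifh1 and fhl1, with 1, 27 and 4 at least 2-fold lower. The lowest of them were rps2 without sfp1, at 2991 FPKM against 6001 in wild type, and rps1402 without ifh1, at 2382 against 7895. The 10 stalk genes (rpp), whose acidic proteins recruit translation factors, had medians of −0.61, −0.93 and −0.40. They were less uniform than the rpl and rps genes, with 7, 8 and 6 of the 10 below 0. The highest stalk gene ratios were 0.35, 0.45 and 0.67. Here rpp202 was lowest in the sfp1 knockout (2772 against 6093 FPKM) and rpp0 without ifh1 (2381 against 5450 FPKM).

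The factors that assemble the large subunit in the nucleus and cytoplasm gave other values. Of 42 such genes above the minimum, all 42 were below 0 without sfp1, 14 without ifh1 and 33 without fhl1, with medians of −0.68, 0.07 and −0.14. At least 2-fold lower were 7, 0 and 0. The lowest in the sfp1 knockout were rlp24, the placeholder for the ribosomal protein Rpl24 on the precursor, at 209.2 FPKM against 515.6, and tif6, which keeps the subunits from joining early, at 282.1 against 667.9. So in the sfp1 knockout the assembly factor median lay below that of the large-subunit genes themselves, and in the ifh1 knockout it lay above 0 while that of the large-subunit genes was −0.89.

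Among the members, the ratio varied with gene length. In the ifh1 knockout the median was −0.58 for the 10 genes under 300 bp, −0.80 for the 31 genes of 300 to 500 bp and −1.002 for the 35 longer genes, and in the fhl1 knockout it was −0.31, −0.51 and −0.64. In the sfp1 knockout it was −0.41, −0.58 and −0.58. Genes other than rpl had medians of 0.34, 0.01 and 0.02 in the same 3 classes in the fhl1 knockout and of 0.08, −0.02 and −0.01 in the sfp1 knockout, with the shortest class highest. In the ifh1 knockout, where the members' order was steepest, they stood at 0, −0.02 and −0.01. With the midpoints of the bounds in place of FPKM, the members stood at −0.26, −0.67 and −0.99 without ifh1 and at −0.34, −0.51 and −0.63 without fhl1. The part of the correction for coding length in this order was not tested.

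Single-copy genes were less low than genes with copies in 2 of the 3 knockouts. Their medians (12 genes) and those of the 64 genes with copies were −0.54 and −0.56 without sfp1, −0.71 and −0.96 without ifh1, and −0.30 and −0.61 without fhl1. In the ifh1 knockout 1 of the 12 and 27 of the 64 were at least 2-fold lower. Of the 12 single-copy genes only rpl6, rpl8 and rpl13 have 500 bp or more, and the others include the short rpl29 and rpl39. Length was not held equal in this comparison, so copy number and length cannot be told apart here. Genes with 1 coding exon (40) and those with introns (36) had medians of −0.98 and −0.81 without ifh1, −0.62 and −0.42 without fhl1 and −0.61 and −0.50 without sfp1. Here too length was not held equal, as most genes with introns are under 500 bp and most with 1 coding exon are longer.

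The lowest single gene in the sfp1 knockout was rpl2701, followed by rpl1002. The gene rpl13, with no second copy in the table, was at 7487 FPKM in wild type, 4117 without sfp1, 4267 without ifh1 and 5838 without fhl1. Its ratio was −0.86 without sfp1, −0.81 without ifh1 and −0.36 without fhl1, and it was 1 of 9 members with a lower ratio in the sfp1 than in the ifh1 knockout. The rpl35a gene, which encodes protein eL33 and not the product of rpl35, was at 7858, 4352, 3501 and 6047 FPKM in the same order (−0.85, −1.17 and −0.38). The gene rpl2802, which encodes uL15, was at 9819, 5515, 4950 and 6277 FPKM (−0.83, −0.99 and −0.65). Its partner rpl2801 was about 4.17-fold lower in wild type, at 2354 FPKM, and had ratios of −0.54, −0.64 and −0.39. The gene rpl2501, whose protein uL23 stands at the tunnel exit where the signal recognition particle docks, was at 7875, 4534, 3661 and 5295 FPKM (−0.80, −1.10 and −0.57).

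In the ifh1 knockout the lowest genes were rpl1603, rpl2401, rpl3002 and rpl1602, described with their copies below. The rpl803 gene was at 1194 FPKM in wild type, 782.2 without sfp1, 441.0 without ifh1 and 638.5 without fhl1 (−0.61, −1.43 and −0.90). It is the least abundant of the 3 genes for uL2, a protein near the catalytic centre, all of which encode the identical protein. The next, rpl802, was at 1740, 1092, 698.9 and 869.7 FPKM (−0.67, −1.31 and −0.999), and the most abundant, rpl801, at 4556, 2722, 2282 and 3115 (−0.74, −0.997 and −0.55). The 2 less abundant genes were thus lower than rpl801 in the ifh1 and fhl1 knockouts, by 0.32 to 0.45 on the log2 scale. In the sfp1 knockout they were 0.07 and 0.13 higher, and with quantile normalization 0.17 and 0.13 lower. The gene rpl44, the single gene for a protein of the L28e family, was at 10994, 6416, 4376 and 5549 FPKM (−0.78, −1.33 and −0.99), which made it the lowest single-copy gene in the ifh1 and fhl1 knockouts. The rpl15 gene, one of the pair for eL15, was at 4770, 2774, 1858 and 2865 FPKM (−0.78, −1.36 and −0.74), and its partner rpl1502 at −0.71, −0.93 and −0.67.

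The fhl1 knockout shared several of the lowest genes with the ifh1 knockout, and both are set against the same wild-type value. The rpl2301 gene, which encodes the same protein as rpl2302, was at 4876 FPKM in wild type, 3010 without sfp1, 2064 without ifh1 and 2266 without fhl1 (−0.70, −1.24 and −1.11). Its partner rpl2302 was at 2908, 1647, 1621 and 2041 FPKM (−0.82, −0.84 and −0.51). The order of these copies therefore changed: rpl2302 had the lower ratio in the sfp1 knockout, by 0.12, and rpl2301 in the other 2, by 0.40 and 0.59. The rpl1702 gene, for the tunnel protein uL22, was at 1848, 1298, 864.9 and 989.1 FPKM (−0.51, −1.09 and −0.90).

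At the other end were the members with the highest ratios, most of which were still below wild type. The rpl39 gene was at 64765 FPKM in wild type, 52012 without sfp1, 59287 without ifh1 and 69761 without fhl1 (−0.32, −0.13 and 0.11). Its direction depended on the values used: with midpoints of the bounds it was above 0 without ifh1 and below 0 without fhl1, and with scaling to the FPKM outside ribosomal protein genes it was above 0 in both. With quantile normalization rpl39 was at 0 in all 3 knockouts because it kept its rank, so that setting cannot show its direction. The rpl14 gene was at 4853, 3660, 3307 and 4583 FPKM (−0.41, −0.55 and −0.08), above 0 without fhl1 with scaling to the FPKM outside ribosomal protein genes. The rpl42 gene, for a protein at the exit site whose mutation gives cycloheximide resistance in yeasts, was at 3557, 2563, 2358 and 3186 (−0.47, −0.59 and −0.16). The rpl3602 gene was at 5839, 4299, 4504 and 5132 FPKM (−0.44, −0.37 and −0.19), and its partner rpl3601 at −0.45, −0.84 and −0.40. With quantile normalization rpl14 and rpl3602 were above 0 in all 3 knockouts and rpl42 in 2, those of ifh1 and fhl1. That setting takes away much of a change that members share, so these signs are relative to other abundant genes. Of the other short genes with the highest listed FPKM, rpl29 was at 32518, 23344, 21712 and 27322 FPKM (−0.48, −0.58 and −0.25), and rpl31 at 18191, 10962, 9110 and 12603 (−0.73, −0.998 and −0.53).

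Copies of the same protein mostly had similar ratios. Among the 31 proteins with copies, the median difference between the highest and the lowest ratio of the copies was 0.16 without sfp1, 0.31 without ifh1 and 0.25 without fhl1. Copies differed by at least 1.5-fold in their ratio in 2, 6 and 6 proteins. For comparison, this was so in 0, 2 and 2 of the 23 small-subunit proteins with copies. Copies lay on opposite sides of 0 in 1, 2 and 1 large-subunit proteins. Level did not order the copies in the same way throughout: among the 29 pairs, the copy with the lower mean level had the lower ratio in 12, 14 and 20. This mean was taken over wild type and all knockouts, so it is not independent of the ratios. For rpl12 and rpl21 the copies stood in the opposite order in wild type.

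**Figure D3:**
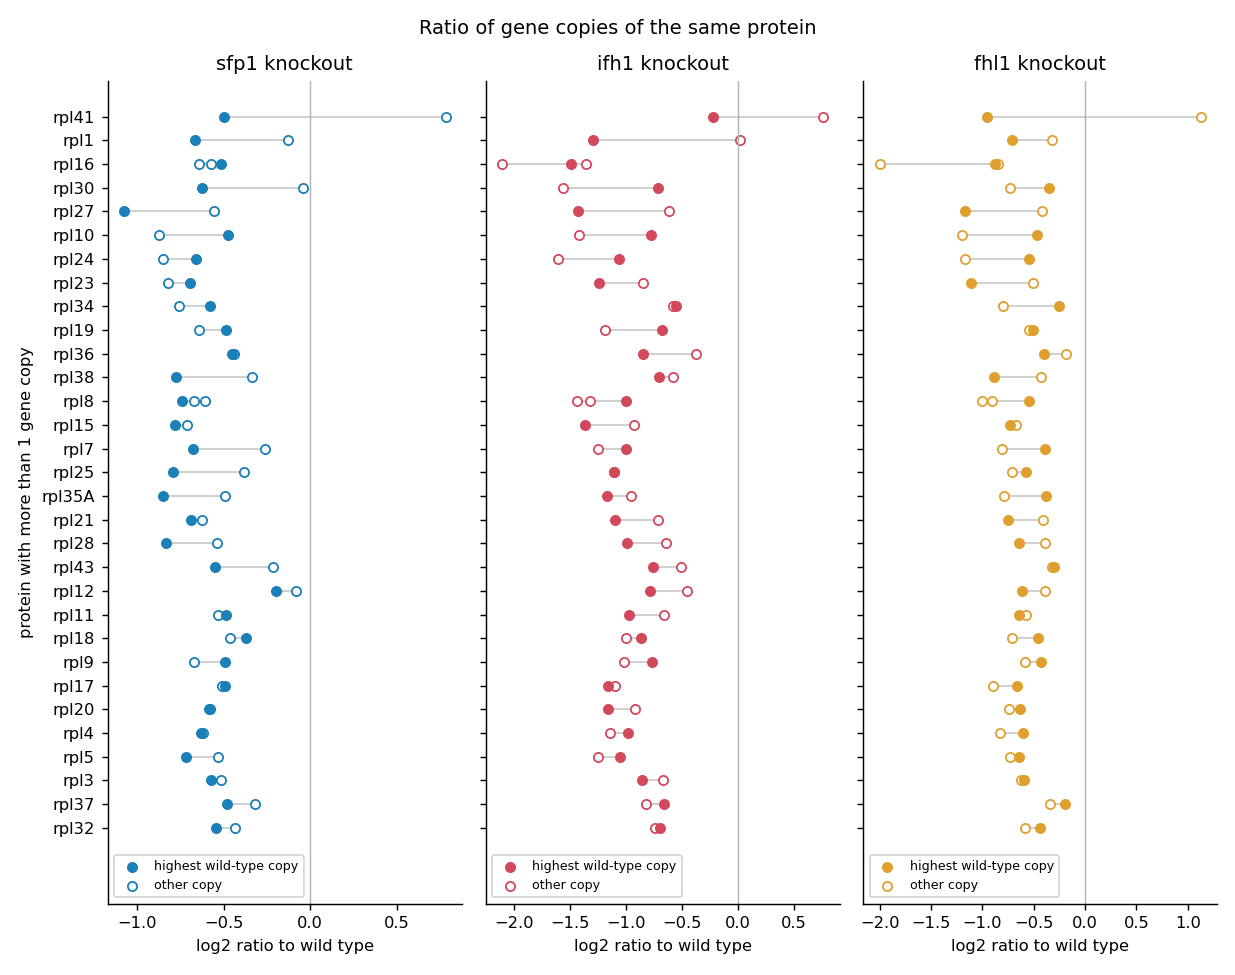
Log2 ratio to wild type of each gene copy (filled, the copy with the highest wild-type level; open, other copies) for the 31 proteins with copies, in each knockout; the horizontal scales differ between the panels, and proteins are ordered by the widest gap in any knockout. Gaps are widest in rpl41, rpl1, rpl16, rpl30 and rpl27, and most other copies lie close together.

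Levels of the copies in wild type were often unequal. The median of the highest over the lowest copy was 1.87, with 15 proteins at 2-fold or more and 3 at 10-fold or more, namely rpl30 (29.1), rpl16 (16.1) and rpl1 (10.8). Among the 23 small-subunit proteins the median was 1.70, with 8 at 2-fold and 0 at 10-fold or more. The next most unequal pair was rpl34, with rpl3401 at 5375 FPKM in wild type, 3600 without sfp1, 3657 without ifh1 and 4504 without fhl1, and rpl3402 at 977.5, 578.4, 653.2 and 562.2. Their gap was 0.18, 0.03 and 0.54 on the log2 scale, with rpl3402 the lower, and under other settings at most 0.52, 0.57 and 0.89. The most even pairs were rpl24 (1.02), rpl12 (1.03), rpl21 (1.06), rpl20 (1.12) and rpl32 (1.17). Their wild-type values were 4847 and 4960 FPKM for rpl2401 and rpl2402, 119.4 and 115.3 for rpl1201 and rpl1202, 4180 and 4442 for rpl2101 and rpl2102, 5269 and 4714 for rpl2001 and rpl2002, and 3840 and 4490 for rpl3201 and rpl3202. Even pairs in wild type did not all stay even, as rpl24 shows below.

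The rpl1 genes encode uL1, the protein of the mobile stalk that guides used transfer RNA out of the ribosome. The major copy, rpl101, was at 5391 FPKM in wild type, 3402 without sfp1, 2206 without ifh1 and 3301 without fhl1. The minor copy, rpl102, was at 497.0, 454.0, 503.5 and 396.8 FPKM. The gene rpl101 thus had ratios of −0.66, −1.29 and −0.71, and rpl102 of −0.13, 0.02 and −0.32. In the ifh1 knockout rpl101 was 1.31 lower than rpl102 on the log2 scale, the widest gap of any pair there, and its bounds, 2371 to 5497 in wild type and 1041 to 2343 in the knockout, lay apart. With quantile normalization this gap was 0.73, less than those of rpl30 (1.54) and of rpl1602 and rpl1603 (1.36). Over all settings the ratio of rpl101 minus that of rpl102 ranged from −0.57 to −0.23 without sfp1, from −1.31 to −0.73 without ifh1 and from −0.39 to −0.04 without fhl1. The share of rpl102 in the summed level was 8.44% in wild type, 11.8% without sfp1, 18.6% without ifh1 and 10.7% without fhl1. The 2 proteins differ at 16 of 216 residues, and the coding sequences shared no 50-base window. With scaling to the FPKM outside ribosomal protein genes and with quantile normalization rpl102 was also above 0 without sfp1. Of the promoters printed above, that of rpl101 carried the HomolE letters and that of rpl102 did not.

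The rpl16 genes encode uL13 from 3 genes. The rpl1602 gene was at 4731 FPKM in wild type, 3306 without sfp1, 1683 without ifh1 and 2576 without fhl1 (−0.52, −1.49 and −0.88). The rpl1601 gene was at 2966, 1899, 1157 and 1651 FPKM (−0.64, −1.36 and −0.84). The third copy, rpl1603, was at 293.3, 197.0, 67.3 and 72.6 FPKM. Its ratios of −0.57, −2.11 and −2.00 were the lowest of all 76 genes in the ifh1 and fhl1 knockouts and close to the median in the sfp1 knockout. The bounds of rpl1603 were 128.3 to 272.3 in wild type, 28.0 to 68.4 without ifh1 and 28.4 to 65.6 without fhl1, and thus lay apart in both. Its share of the summed level was 3.67% in wild type, 3.65% without sfp1, 2.32% without ifh1 and 1.69% without fhl1. In the fhl1 knockout the ratio of rpl1603 was 1.12 below that of rpl1602, and between 1.00 and 1.68 below it under every other setting tried. The Rpl1603 protein differs from Rpl1602 at 27 of 197 residues and from Rpl1601 at 30, while Rpl1601 and Rpl1602 differ from each other at 7. The change A8G in the HomolD box of rpl1603 was in neither of the other 2 promoters, and it was found in 16 of the 76 members' promoters.

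**Figure D4:**
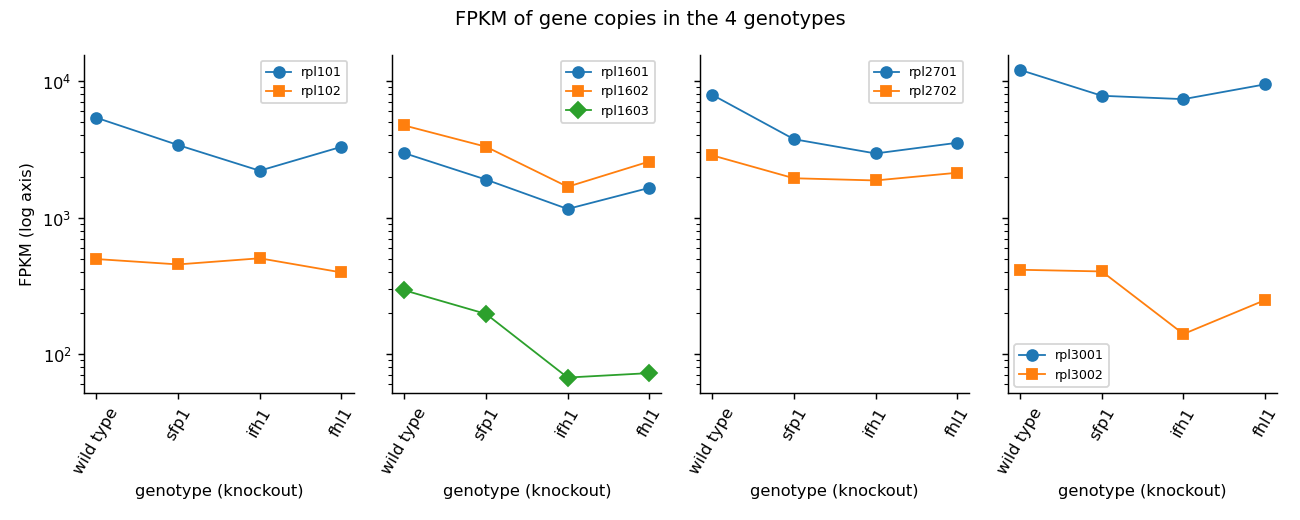
FPKM (log axis) of the copies of rpl1, rpl16, rpl27 and rpl30 in wild type and without sfp1, ifh1 or fhl1, 1 value per genotype; lines join the values of 1 gene. The rpl102 value stays between 396.8 and 503.5 while rpl101 is at 2206 without ifh1, rpl1603 is at 67.3 and 72.6 in the ifh1 and fhl1 knockouts, rpl2701 approaches rpl2702, and rpl3002 is near its wild-type level in the sfp1 knockout alone.

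The rpl27 genes encode eL27, and here the major copy was the lower one in every knockout. The rpl2701 gene was at 7931 FPKM in wild type, 3755 without sfp1, 2951 without ifh1 and 3534 without fhl1. The rpl2702 gene was at 2858, 1943, 1872 and 2131 FPKM. The ratios of rpl2701 were −1.08, −1.43 and −1.17, which made it the only member at least 2-fold lower in all 3 knockouts, and those of rpl2702 were −0.56, −0.61 and −0.42. That call was lost with scaling to the FPKM outside ribosomal protein genes, where rpl2701 was at −0.87 without sfp1, and with quantile normalization, where it was at −0.57, −0.63 and −0.72 and rpl1002 was the lowest member without sfp1. The rpl2701 copy held 73.5% of the summed level in wild type, 65.9% without sfp1, 61.2% without ifh1 and 62.4% without fhl1. The gap between the copies was −0.52, −0.82 and −0.74, and under the other settings it ranged from −0.57 to −0.35, from −0.82 to −0.77 and from −0.89 to −0.74. A wild-type value of rpl2701 that is too high would give such a gap in all 3 comparisons at once, and with 1 wild-type value this was not tested. The bounds of rpl2701 in wild type, 2193 to 5134, lay apart from those in the ifh1 and fhl1 knockouts, whose upper ends were 1945 and 2006, and overlapped with those in the sfp1 knockout, 1106 to 2419. The proteins differ at 13 of 136 residues.

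The rpl30 genes encode eL30, which in budding yeast binds its own transcript and blocks its splicing. The major copy, rpl3001, was at 12071 FPKM in wild type, 7812 without sfp1, 7379 without ifh1 and 9472 without fhl1. The minor copy, rpl3002, was at 414.8, 403.2, 140.3 and 248.8 FPKM. The order of the copies differed between knockouts. In the sfp1 knockout the ratio of rpl3001 was −0.63 and that of rpl3002 −0.04, while in the ifh1 knockout they were −0.71 and −1.56, and in the fhl1 knockout −0.35 and −0.73. The share of rpl3002 in the summed level was 3.32% in wild type, 4.91% without sfp1, 1.87% without ifh1 and 2.56% without fhl1. The direction of the gap held under every setting tried in each knockout, with ranges of −0.60 to −0.18 without sfp1, 0.79 to 1.54 without ifh1 and 0.33 to 0.77 without fhl1 for rpl3001 minus rpl3002. In the sfp1 knockout rpl3002 itself was above 0 with scaling to the FPKM outside ribosomal protein genes, with quantile normalization and with midpoints of the bounds. This pair is the least alike of all copies, with 81.2% of residues identical.

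The rpl10 genes encode the protein that is added last to the maturing subunit, with the help of the export adaptor Nmd3. The rpl1001 gene was at 4301 FPKM in wild type, 3100 without sfp1, 2510 without ifh1 and 3111 without fhl1 (−0.47, −0.78 and −0.47). The rpl1002 gene was at 2303, 1256, 859.9 and 1002 FPKM (−0.87, −1.42 and −1.20). The rpl1002 gene was thus lower than its partner in each knockout, and its share of the summed level was 34.9% in wild type and 28.8%, 25.5% and 24.4% in the knockouts. The gap was 0.40, 0.64 and 0.73, and reached 0.64, 1.07 and 0.97 under other settings. The proteins differ at 1 residue. Because these genes share 47.6% of their windows and the counting of reads that match both is not stated, the split between them is uncertain. Its effect on the gap was not tested.

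Rpl24, the protein that replaces Rlp24 on the subunit in the cytoplasm and then bridges the 2 subunits, comes from a pair that was even in wild type and uneven in the knockouts. The rpl2401 gene was at 4847 FPKM in wild type, 2689 without sfp1, 1593 without ifh1 and 2152 without fhl1 (−0.85, −1.60 and −1.17). The rpl2402 gene was at 4960, 3136, 2373 and 3392 FPKM (−0.66, −1.06 and −0.55). The ratio of rpl2401 minus that of rpl2402 without fhl1 was −0.62, and between −0.63 and −0.62 under the other settings. Rpl38, for eL38, was another pair with a wide gap in the sfp1 knockout. The rpl3801 gene was at 16523, 9651, 10136 and 8949 FPKM (−0.78, −0.70 and −0.88), and rpl3802 at 5690, 4514, 3814 and 4234 (−0.33, −0.58 and −0.43).

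Rpl41 had the widest gap in the sfp1 and fhl1 knockouts, and its values are the least certain. It encodes the smallest ribosomal protein, of 25 residues, identical between the copies. The rpl4101 gene was listed at 1044820 FPKM in wild type, 739895 without sfp1, 897273 without ifh1 and 539030 without fhl1, and rpl4102 at 318600, 548334, 540721 and 698224. The ratios were −0.50, −0.22 (above 0 with scaling to the FPKM outside ribosomal protein genes) and −0.95 for rpl4101 and 0.78, 0.76 and 1.13 for rpl4102, the only member above 0 in all 3 knockouts. The bounds overlapped widely. For rpl4102 they were 0 to 42.6 in wild type and 6.09 to 60.9 without fhl1. With quantile normalization, which gives each gene the value of its rank, both copies were at 0 in the sfp1 and ifh1 knockouts. They kept their ranks there, so that setting cannot show a change in them. At the midpoints of the bounds the ratios of rpl4102 were 0.42, 0.50 and 0.63. Summed over both copies rpl41 differed little from wild type, with ratios of −0.08, 0.08 and −0.14.

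Summed over copies, proteins crossed the 2-fold limit in the ifh1 knockout alone. Of the 43 proteins, 0 were 2-fold lower or more without sfp1, 15 without ifh1 and 0 without fhl1. Of the 76 single genes these were 1, 28 and 5, so that the share without ifh1 was much the same. Medians of the summed levels were −0.58, −0.87 and −0.52. Below 0 were 43, 42 and 42. The 5 genes at the limit in the fhl1 knockout, rpl1603, rpl1002, rpl2401, rpl2701 and rpl2301, each had a copy with a higher ratio, and the summed level of each of these proteins stayed above the limit. The lowest sums in the ifh1 knockout were those of rpl16 (−1.46), rpl44 (−1.33) and rpl24 (−1.31).

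The promoters of the members were searched for the HomolD box CAGTCACA and the first 9 letters of the HomolE box, ACCCTACCC, on both strands, from 250 bases before to 50 bases after the annotated start. An exact HomolD box was found in 50 of the 76 promoters (65.8%), in 34 of 55 small-subunit promoters (61.8%) and in 137 of all 5112 promoters of protein-coding genes (2.68%). The HomolE letters were found in 19 (25.0%), 21 (38.2%) and 67 (1.31%) in the same order. Both were present in 13 of the members and neither in 20. A motif match is a description of the letters and says nothing of what binds there.

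Allowing 1 changed letter within the last 100 bases before the start, 75 of 76 members had a HomolD box, 49 exact and 26 with 1 change, the exception being rpl2501. This was so in 53 of 55 small-subunit promoters (96.4%) and in 312 of the 4981 promoters outside both groups (6.26%). Counted from 1 at the first letter of CAGTCACA, the changed letter was the last one in 20 of the 26 members (76.9%), as A8G in 16, A8T in 3 and A8C in 1. The last letter was the changed one in 38 of 275 such promoters outside both groups (13.8%). It was not counted in small-subunit promoters. The position was narrow as well. The box started 70 to 40 bases upstream of the annotated start in 70 of the 75 members (93.3%), against 146 of 312 outside both groups (46.8%). Small-subunit promoters shared this position, with every match in the same range except those of rps1402 (at −85) and rps1601 (at −75). The HomolE letters lay further upstream, at 86 to 60 bases, in all 19 matches.

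**Figure D5:**
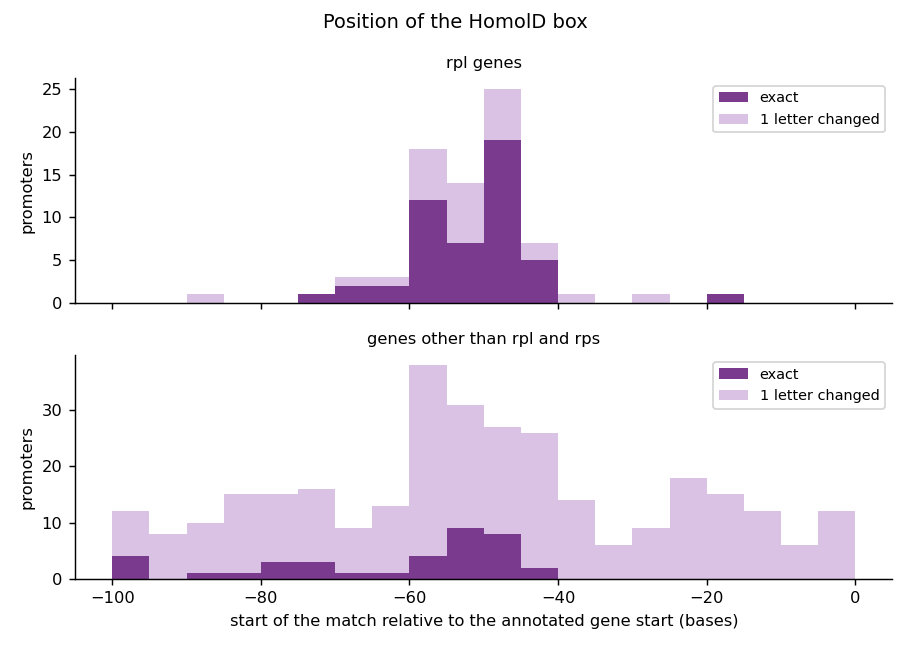
Start of the HomolD box, in bases relative to the annotated gene start, in promoters of large-subunit genes (upper panel) and of genes other than rpl and rps (lower panel), exact or with 1 letter changed, in bins of 5 bases; the vertical axis counts promoters. In the upper panel 70 of 75 matches start 70 to 40 bases upstream, and in the lower panel matches lie along the whole stretch.

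The ratios differed little between members with an exact box and those with a changed one. The medians of the 49 exact and the 26 changed promoters were −0.54 and −0.56 without sfp1, −0.86 and −0.91 without ifh1 and −0.58 and −0.54 without fhl1. The 13 members with both boxes and the 20 with neither exact box had medians of −0.54 and −0.60, −0.86 and −0.98, and −0.59 and −0.59. The 6 members with the HomolE letters and no exact HomolD box had medians of −0.52, −0.59 and −0.41, but ranged from −1.60 to −0.37 without ifh1. Only 1 pair of members lay next to each other in the genome, rpl35 and rpl902 on chromosome III, which point away from each other across 203 bases. The span from coding start to coding end, introns included, overlapped another annotated gene in 53 of the 76 members, on the opposite strand in 52. The share among all genes was not counted, so this cannot be called particular to the members. The overlapping gene was protein-coding in 9, namely rpl1603, rpl1702, rpl1802, rpl2401, rpl3801, rpl4101, rpl4302, rpl44 and rpl6. Several of these are among the lowest members named above. The libraries kept strand, but the sources used here do not say whether counting used it. Values of all 53 members may therefore hold reads of the overlapping gene.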

How the data were processed

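Total RNA of 4 genotypes was sequenced from directional libraries, per the labels' protocols. The authors deposited 1 table of FPKM with a lower and an upper bound per gene and genotype. TopHat2 2.0.9 and Cufflinks 2.1.1 were used, per the submitters' processing notes. Not given in the sources used here are their roles, the genome build, the read length and the treatment of reads that match several copies. The table's name mentions 2 replicates, whose combination is not given either. The crf1d columns were read as ifh1 knockout values, because the reference lists crf1 as another name of ifh1.

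From the deposited FPKM, log2 ratios were computed with a pseudocount of 1 for the 4761 genes that averaged 1 FPKM or more. Copies were grouped by name, and the groups checked by protein identity. Of the names, rpl15 was paired with rpl1502, and rpl8 (eL8) was kept apart from rpl801 to rpl803. Coding boundaries of all 76 members equal those of ASM294v3, which gave positions and promoters. The naming rule took, per knockout, the 10 lowest and 5 highest members and the 5 proteins with the widest gap between copies. It also took the members with the 5 highest and 5 lowest wild-type levels, and the 5 most and least even proteins. Members and lists were chosen with earlier results of these data known. The scripts were tested on simulated data. Python 3.11.15, pandas 2.3.3, numpy 2.4.6, scipy 1.17.1 and Biopython 1.88 were used. Alternatives covered the pseudocount (0.1 and 10), the minimum, scaling, genes of at least 300 bp, midpoints of the bounds and summed copies.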

Additional observations from a re-analysis of the deposited data

How the results depend on the processing

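Settings that kept the deposited scale moved little. The pseudocounts of 0.1 and 10 FPKM, size factors and midpoints of the bounds left the medians, the counts at 2-fold and the counts of proteins with unlike copies close to those reported. No minimum and a minimum of 10 FPKM could change nothing, as the lowest member value in any genotype was 67.3 FPKM and all 76 members were kept. Of 33 medians under other settings 27 moved by less than the limit of 0.1 on the log2 scale, of 33 counts at 2-fold 25 stayed within 1.5 times, and of 30 counts of proteins with unlike copies 28 did. These tallies include the other minimums, whose values were fixed in advance. No median changed sign.

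Scaling to the FPKM outside ribosomal protein genes gave medians of −0.35 for the sfp1, −0.59 for the ifh1 and −0.44 for the fhl1 knockout, with 0 members 2-fold lower or more without sfp1 and 11 without ifh1. Quantile normalization gave medians of −0.094, −0.12 and −0.10 and counts of 0, 4 and 1, and in the sfp1 knockout 1 protein with unlike copies, as did genes of at least 300 bp, which leave out rpl41. Because members hold many of the highest values, quantile normalization takes away much of a change that they share, and its medians and counts cannot show one. With copies summed, 0, 15 and 0 proteins were at least 2-fold lower. Members that share no 50-base window with another locus, a setting chosen after seeing the data, gave values close to those reported.

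With 1 value per genotype, no ratio has an error and no gene was tested. No paired analysis was possible because each genotype has 1 value. Depth is unknown, and the bounds are not on the scale of the FPKM for short genes: in wild type all 41 members under 500 bp and 18 of the 35 longer ones lay above their own upper bound.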
